A study of Mus musculus with 9 samples.

Results

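The proteasome subunits and assembly factors were followed in liver messenger RNA from male wild-type C57BL/6J mice. They were taken as the protein-coding genes whose symbol starts with Psm, a letter from a to g and a digit. The rule found 50 of the 54532 genes in the table. Of these, 31 encode the constitutive subunits of the 26S particle and 3 encode the catalytic subunits of the immunoproteasome. The others are a pair of tissue-restricted core subunits, 3 chaperones of the 19S base, 4 chaperones of the 20S core, 6 genes of alternative caps and of a core inhibitor, and Psmc3ip, a recombination factor that shares only the symbol. Of the 50 genes, 48 passed the filter on low values and were tested. Psmb11, the core subunit of thymic cortical epithelium, had 0 reads in all 9 libraries, which allows up to 3 reads in each. Psmc3ip lay between 0.0425 and 0.325 FPKM (fragments per kilobase, scaled for library size) and was not tested.

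The study compared 3 groups of 3 libraries to ask how 326E, an enedioic acid analogue whose targets are named by the series title as ACLY and PPARα, acts on diet-induced steatohepatitis. The chow group received normal chow and vehicle. The vehicle group received CDAA-HFD, a choline-deficient, amino acid-defined, high-fat diet used to bring about fatty, inflamed and scarred livers, together with vehicle. The 326E group received CDAA-HFD and 326E at 30 mg/kg for 6 weeks. All mice were wild type and male, and their age and the length of the diet are not given in the sources used here. The sample titles all begin with MCD, the usual name of a different diet, and the protocol, which names CDAA-HFD, was followed. Whether the libraries come from separate mice is not stated in the labels, so p-values measure the spread between these samples.

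The proteasome is the protease that degrades most ubiquitin-tagged proteins of the cytosol and nucleus. Its 20S core is a stack of rings in which alpha subunits form the gate and beta subunits hold the cutting sites inside. The 19S cap binds the ubiquitin chain, removes it, unfolds the protein with a ring of ATPases and opens the gate. In cells that receive interferon signals, and constitutively in many leukocytes, the catalytic subunits Psmb5, Psmb6 and Psmb7 are replaced in new particles by Psmb8, Psmb9 and Psmb10, which changes the peptides offered on MHC class I. In the liver, the transcription factor NRF1 (Nfe2l1) drives the constitutive subunit genes when proteasome capacity is short.

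Promoters of 2 exchange pairs are shown, because these pairs carry the comparison of constitutive and immune subunits. All 4 are RefSeq sequences on GRCm38.p6 (mm10), from 250 bases before to 50 bases after the start in that table, and 42 of the 50 genes had an entry. Capitals mark every match to 5 motifs searched on both strands. These were TGACNNNGC (the core of the antioxidant response element, which NRF1 and NRF2 read), CCAAT, GAAA followed after 2 bases by GAAA (interferon-stimulated element), TTCNNNGAA (gamma-activated site) and GGGA followed after 4 bases by CC (an NF-kB site).
Psmb5, chr14:54617946-54618245, minus strand: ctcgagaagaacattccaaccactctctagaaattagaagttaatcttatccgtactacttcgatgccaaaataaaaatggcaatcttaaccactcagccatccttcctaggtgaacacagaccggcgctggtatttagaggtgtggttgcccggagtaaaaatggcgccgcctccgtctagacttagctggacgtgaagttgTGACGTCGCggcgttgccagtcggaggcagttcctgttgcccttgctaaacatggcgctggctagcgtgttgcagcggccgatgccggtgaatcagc
Psmb8, chr17:34197945-34198244, plus strand: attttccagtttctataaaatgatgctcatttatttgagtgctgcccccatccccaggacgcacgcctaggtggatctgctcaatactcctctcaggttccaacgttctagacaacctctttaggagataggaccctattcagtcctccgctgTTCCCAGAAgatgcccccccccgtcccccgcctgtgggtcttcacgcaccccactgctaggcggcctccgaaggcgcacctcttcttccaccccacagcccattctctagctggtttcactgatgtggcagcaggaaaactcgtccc
Psmb6, chr11:70525107-70525406, plus strand: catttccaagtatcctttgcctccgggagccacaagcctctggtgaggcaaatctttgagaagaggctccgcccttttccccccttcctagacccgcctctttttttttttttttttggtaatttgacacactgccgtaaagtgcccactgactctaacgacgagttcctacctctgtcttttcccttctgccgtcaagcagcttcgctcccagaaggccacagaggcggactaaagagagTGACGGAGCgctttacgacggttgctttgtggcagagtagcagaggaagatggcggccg
Psmb9, chr17:34187281-34187580, minus strand: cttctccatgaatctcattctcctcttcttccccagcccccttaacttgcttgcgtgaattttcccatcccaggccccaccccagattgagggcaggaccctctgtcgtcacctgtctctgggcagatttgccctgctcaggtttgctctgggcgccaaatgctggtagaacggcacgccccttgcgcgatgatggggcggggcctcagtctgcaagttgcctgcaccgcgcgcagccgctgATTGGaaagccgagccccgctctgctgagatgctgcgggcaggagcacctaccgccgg

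The antioxidant element core was in the windows of both constitutive genes shown, as TGACGTCGC from position -47 in Psmb5 and TGACGGAGC from position -9 in Psmb6, counted from the start. It was in 6 of the 42 member promoters (14.3%) and in 12.5% of all 27025 promoters. The only marked letters of Psmb8 were a gamma-activated site, TTCCCAGAA, from position -97, and those of Psmb9 a reversed CCAAT. The gamma-activated site letters were in 7.14% of member promoters and 8.47% of all. The interferon-stimulated element was in 11.9% of member promoters against 3.49% of all, in Psmd4, Psmd9, Psmb3, Psmg4 and Psme1, and in none of the 3 immune subunit windows. CCAAT stood in 35.7% against 37.9%, and the NF-kB letters in 23.8% against 20.5%. These are matches of letters in short windows and are not measured sites.

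Libraries held 13275888 to 17058316 assigned reads. The deposited FPKM were already scaled between libraries, by sizes that are 0.828 to 1.19 of those totals, and this scaling bears on every direction below. The 100 most abundant genes took 41.6 to 42.9% of reads in chow, 32.7 to 36.0% in vehicle and 34.7 to 38.7% in 326E livers. With values scaled to total assigned reads instead, the median diet change of all 13737 tested genes moved from -0.04 to 0.25 on the log2 scale, and the split of diet calls moved from 2859 higher and 2862 lower to 5074 higher and 961 lower. Members are therefore set against the median of all genes throughout. Hepatocyte transcripts dominated every library (albumin at 31766 ± 5067 FPKM in chow, SD).

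In chow liver, RNA of the 31 constitutive subunits spanned 14.8 FPKM (Psmd11) to 101 FPKM (Psma6), with a median of 31.5. Subunits that enter the particle in equal copy number thus differed by up to 6.82-fold in length-normalised RNA. The median coefficient of variation between chow libraries was 6.72% for these genes and 20.9% for the 3 immune subunits. Among the catalytic subunits Psmb5 was at 73.5 ± 6.04 FPKM (SD, n = 3), Psmb6 at 38.7 ± 1.53 and Psmb7 at 19.7 ± 1.46, an order without overlap between libraries. Psmb10 was at 17.6 ± 2.77 FPKM, a level that overlapped with Psmb7, while Psmb8 (4.71 ± 1.23) and Psmb9 (3.93 ± 0.822) were low and overlapped each other. The 3 chaperones of the 19S base (5.41 to 6.97 FPKM) lay below every constitutive subunit. Of the restricted core genes, the testis subunit Psma8 lay at 0.502 to 0.699 FPKM, and over all 9 libraries at 0.267 to 1.24 FPKM, from 8 to 38 reads.

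On CDAA-HFD, most constitutive proteasome genes were low relative to the median gene. With the deposited scaling, 30 of the 48 tested members fell and 2, Psmd8 and Psmb8, rose, while 20.8% of all tested genes were called lower and 20.8% higher. The median change was -0.38 on the log2(FPKM + 1) scale, against -0.04 for all genes, and 40 of 48 members lay below the median of all genes. In 35 members every vehicle library was below every chow library, as was so for 27.0% of all genes, and in 2 above (24.9%). With quantile normalization 20 members were called lower (23.2% of all genes) and with scaling to reads outside the 100 most abundant genes 16 (11.6%). Scaled to total reads, only Psmb3 and Psmd11 were still called lower and 5 members were called higher (7.00% and 36.9% of all genes), and the median was -0.01 against 0.25 for all genes. Both scalings to reads multiply each library by a single factor, which moves members and the median of all genes nearly alike. That 39 of 48 members lay below this median under each of them was therefore almost fixed in advance. Quantile normalization can change the place of members, and it left 36 of 48 below the median of all genes. The members' median then differed from that of all genes by -0.15, against -0.34 as deposited. A lower share of all reads was called for few members.

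**Figure D1:**
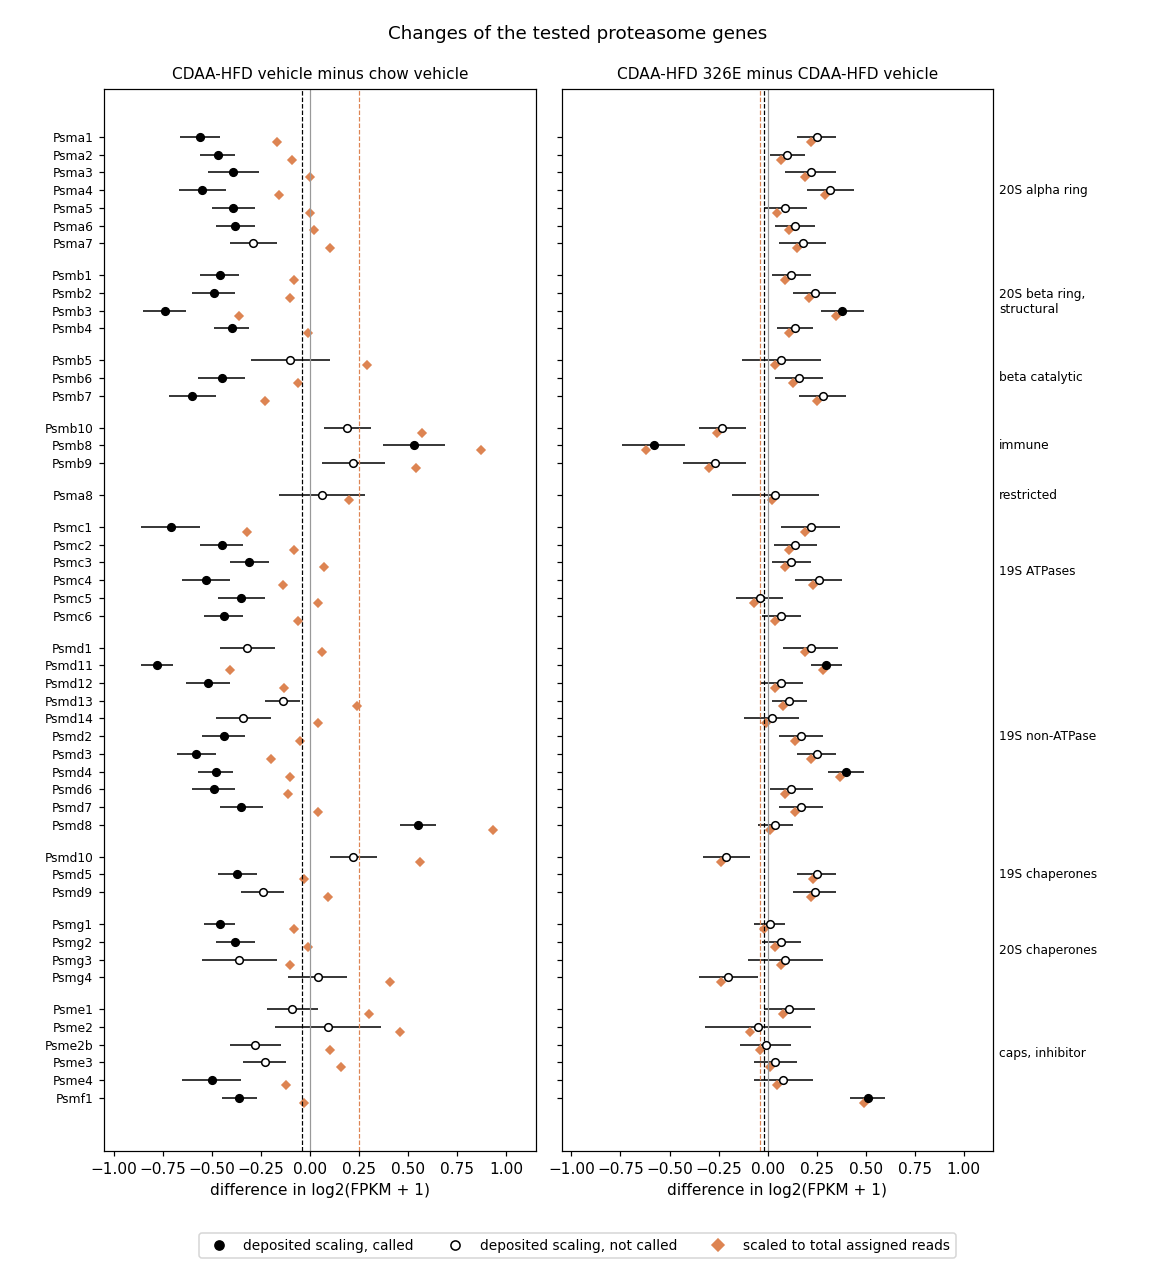
Change of each of the 48 tested proteasome genes, as the difference in log2(FPKM + 1) with its standard error (black, filled where called at an adjusted p under 0.05), for the diet on the left and for 326E on the right. Orange diamonds give the same difference scaled to total assigned reads, and dashed lines the median of all tested genes under each scaling. Most constitutive subunits lie left of the dashed line of their own scaling in the diet panel, but around 0 under total-read scaling.

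The alpha ring gates the core, and most of its genes fell with the deposited scaling. Psma1 was at 41.3, 41.4 and 45.7 FPKM in chow, 26.6, 28.9 and 30.7 in vehicle and 32.5, 33.6 and 36.9 in 326E livers. Its groups did not overlap, with vehicle lowest, and it fell by 0.56 ± 0.10 (SE) on the diet, adjusted p = 0.00167. Psma4 was at 41.4, 45.2 and 40.4 FPKM in chow, 24.8, 28.3 and 33.1 in vehicle and 37.3, 33.6 and 37.1 in 326E livers, again without overlap, and fell by 0.55 ± 0.12, adjusted p = 0.00498. Of the 7 alpha genes, 6 fell, with a median of -0.39 and a range of -0.56 to -0.29, and Psma7 did not pass the test (-0.29, adjusted p = 0.0855). Quantile normalization and reads outside the 100 most abundant genes each left 3 of the 7 called. With total-read scaling none was called and their median was -0.00, which was 0.25 below that of all genes. The counts of Psma5 are uncertain, since 50% of its 50-base stretches also occur in other genes.

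The beta ring has structural and catalytic members. All 4 structural genes fell, with a median of -0.48. Psmb3 fell most, at 29.8, 32.5 and 27.6 FPKM in chow, 16.1, 16.7 and 20 in vehicle and 23.5, 22.4 and 23.7 in 326E livers. The 3 groups of Psmb3 were fully separate, with 326E between the others, and its diet change of -0.74 ± 0.11 (adjusted p = 0.000625) was called in all 21 alternative settings, total-read scaling included (-0.36). Psmb2 was at 48.1, 52.8 and 53.2 FPKM in chow and 32.8, 34.2 and 42.2 in vehicle, without overlap, and changed by -0.49 ± 0.11 (adjusted p = 0.00661), a call that total-read scaling ended (-0.10, adjusted p = 0.43).

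Among the constitutive catalytic subunits, Psmb6 (caspase-like) and Psmb7 (trypsin-like) fell and Psmb5 (chymotrypsin-like) did not pass the test. Psmb7 was at 18.3, 19.4 and 21.2 FPKM in chow, 13.7, 10.3 and 14.0 in vehicle and 15.3, 15.2 and 15.8 in 326E livers, in separate ranges with 326E between. It fell by 0.60 ± 0.12 (adjusted p = 0.00357), a call lost with total reads (-0.23). Psmb6 was at 38.1, 40.5 and 37.6 FPKM in chow, 27.3, 24.9 and 32.8 in vehicle and 33.0, 27.7 and 34.3 in 326E livers. Vehicle lay below chow without overlap and overlapped 326E, and the fall of 0.45 ± 0.12 (adjusted p = 0.0182) was lost without vehicle replicate 1 or 2 or chow replicate 2 and with total reads. Psmb5 was at 73.4, 67.5 and 79.6 FPKM in chow, 91.4, 60.2 and 57.5 in vehicle and 65.1, 62.3 and 90.5 in 326E livers. One vehicle and one 326E library stood above all chow libraries, so all groups overlapped, and the change was -0.10 ± 0.20 (adjusted p = 0.709). Psmb5 counts are uncertain, because 54.1% of its 50-base stretches occur in other genes, mostly Gm3375.

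None of the 3 immune subunits was called lower on the diet. Psmb8 was at 5.13, 5.67 and 3.33 FPKM in chow, 7.82, 7.53 and 6.13 in vehicle and 4.47, 4.45 and 4.36 in 326E livers, from 100 to 419 reads. All vehicle libraries were above all others, while chow and 326E overlapped. The diet rise was 0.53 ± 0.16 (adjusted p = 0.0241) and was lost without vehicle replicate 1 or 2, with only the libraries of the comparison in the fit, and with no filter. Psmb9 was at 4.45, 4.37 and 2.98 FPKM in chow, 4.51, 5.16 and 4.38 in vehicle and 3.76, 4.58 and 2.96 in 326E livers. All groups of Psmb9 overlapped, at a diet change of 0.22 ± 0.16 (adjusted p = 0.309). Psmb10 was at 17.7, 20.4 and 14.8 FPKM in chow, 21.1, 18.9 and 20.5 in vehicle and 16.5, 15.8 and 18.8 in 326E livers. Vehicle overlapped chow and was above 326E by a narrow gap (18.9 against 18.8 FPKM), and the diet change was 0.19 ± 0.12 (adjusted p = 0.242). With total-read scaling all 3 immune subunits were called higher on the diet, by 0.54 to 0.87, where 36.9% of all genes were called higher and the median of all genes was 0.25, so their count depends on the scaling while their direction was the same. Exons of Psmb8, Psmb9 and Psmb7 overlap genes on the opposite strand (Gm20496, Tap1 and Nek6) over 14.7%, 5.8% and 11.8% of their length, and the strand setting of the counting is not given in the sources used here.

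The FPKM ratio of an immune subunit to the subunit it replaces is unchanged by any single scaling factor per library. Psmb8 was 6.98, 8.40 and 4.18% of Psmb5 in chow, 8.56, 12.5 and 10.7% in vehicle and 6.86, 7.14 and 4.81% in 326E livers. Vehicle percentages were above both other groups, by a narrow gap to chow (8.56 against 8.40%), and chow and 326E overlapped each other. Psmb9 was 11.7, 10.8 and 7.94% of Psmb6 in chow, 16.5, 20.8 and 13.4% in vehicle and 11.4, 16.6 and 8.61% in 326E livers, with vehicle above chow and overlapping 326E. Psmb10 was 96.4, 105 and 69.9% of Psmb7 in chow, 154, 183 and 146% in vehicle and 108, 104 and 119% in 326E livers. Vehicle stood above both other groups for this pair, whose mean was 161 ± 19.4% (SD, n = 3) against 90.4 ± 18.2% in chow.

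The ratios were tested as differences of log2(FPKM + 1). On that scale the diet difference was 0.64 for Psmb8 over Psmb5 (exact two-sided permutation test, p = 0.2), 0.66 for Psmb9 over Psmb6 (exact p = 0.1) and 0.80 for Psmb10 over Psmb7 (exact p = 0.1). With 1 added, the lowest vehicle value of Psmb8 over Psmb5 (-3.39) falls below the highest chow value (-3.36), an overlap that the percentages do not have, and with 0.1 added the difference was 0.73. Between 326E and vehicle the same ratios differed by -0.65 (exact p = 0.1), -0.43 (exact p = 0.2) and -0.51 (exact p = 0.1). The smallest p that 3 against 3 libraries allow is 0.1, and over the 6 comparisons the adjusted values were 0.15 or 0.2, so none can pass 0.05 in this design. The sign was the same in every setting run for the pairs, but not the size. Psmb8 over Psmb5 differed by 0.39 on the diet without chow replicate 3 and by 0.34 with quantile normalization, which gave 0.41 for Psmb9 over Psmb6. With 326E, Psmb9 over Psmb6 differed by -0.24 without 326E replicate 3 and by -0.28 without vehicle replicate 2. Both sets of differences share the vehicle libraries.

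**Figure D2:**
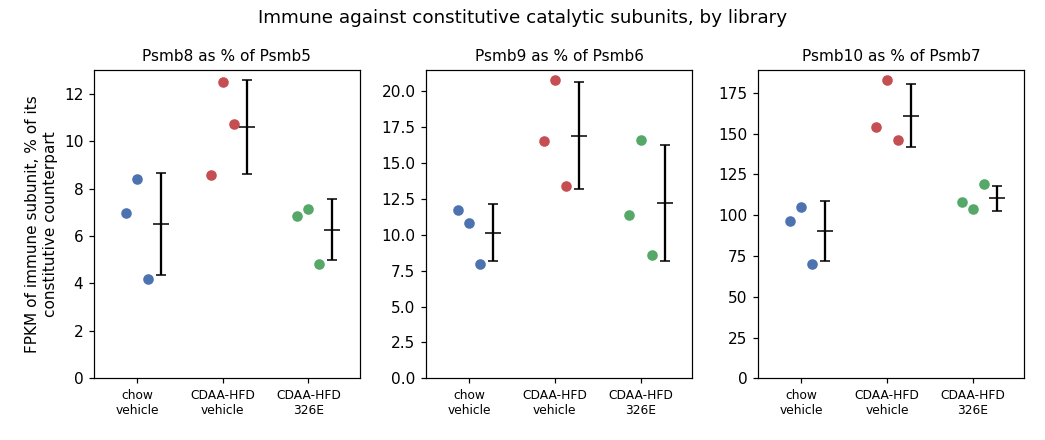
FPKM of each immune subunit as a percentage of the constitutive subunit it replaces, by library (points) with the mean and SD of 3 libraries (black), for the 3 groups. Vehicle libraries lie at 146 to 183% for Psmb10 over Psmb7, above all chow (69.9 to 105%) and 326E libraries (104 to 119%), while in the panel of Psmb8 over Psmb5 the lowest vehicle library (8.56%) is close to the highest chow library (8.40%).

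Leukocyte markers were higher in both CDAA-HFD groups. With the deposited scaling, Psmb8 alone of the immune subunits was called on the diet. Psmb8 and Psmb10 were called higher with quantile normalization, as were 2533 of all 13737 genes. The same 2 were called with reads outside the 100 most abundant genes (3720 of all genes higher), and all 3 with total reads (36.9%). None of the 3 was called in 326E against chow under any of these scalings. All 7 pan-leukocyte markers rose on the diet, where 20.8% of all genes were called higher. They were also called higher in 326E than in chow livers (median 1.52), where 14.4% of all genes were. Their summed level was 24.1 to 28.2 FPKM in chow, 126 to 158 in vehicle and 81.3 to 92.7 in 326E livers. Of the 7, 4 fell with 326E, where 6.50% of all genes were called lower. The 7 macrophage markers summed to 153 to 192, 892 to 1412 and 522 to 904 FPKM, with 7 higher on the diet and 3 lower with 326E. The count lower with 326E was 2 with total reads and 4 with quantile normalization. Lymphocyte markers were low but higher in sum in both CDAA-HFD groups. The 8 genes summed to 1.52 to 1.76 FPKM in chow, 3.10 to 6.03 in vehicle and 2.72 to 6.74 in 326E livers, with Cd2 at 0 in at least one library. Only 2 of the 8 were tested. Of these, 1 was called higher on the diet, though 0 with quantile normalization, and 1 in 326E against chow. The 4 neutrophil markers summed to 4.57 to 23.5, 28.5 to 54.1 and 15.5 to 28.6 FPKM, with Ly6g at 0 in all chow and vehicle libraries. Hepatocyte markers moved the other way with the deposited scaling, at sums of 40508 to 46660, 25247 to 39606 and 23635 to 33000 FPKM. Of the 7, 5 were called lower on the diet, as were 20.8% of all genes, and none was called with 326E. With total reads 4 were lower on the diet (7.00% of all genes) and with quantile normalization 2 (23.2%). The quantile median was -0.28, against -0.09 for all genes. The part of these cells in the proteasome changes was not tested, and in whole tissue fewer cells of a type and less RNA per cell cannot be told apart.

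**Figure D3:**
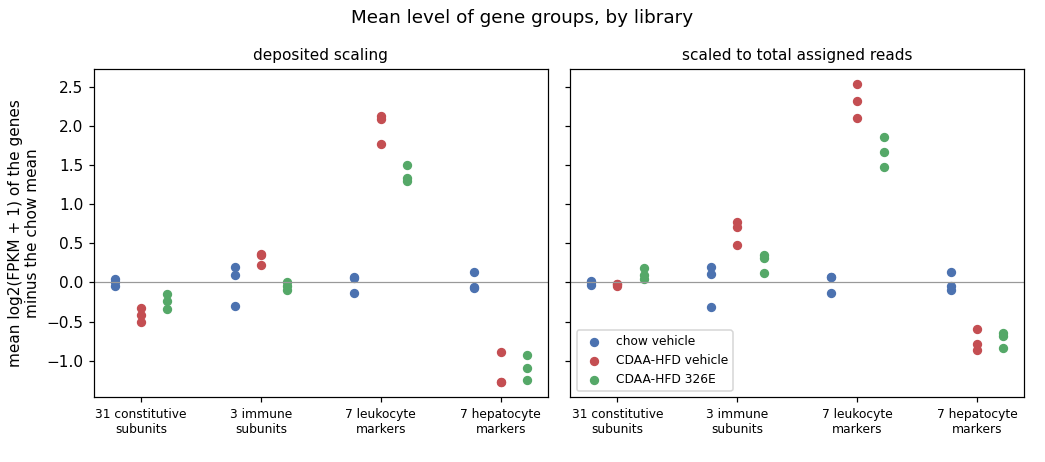
Mean log2(FPKM + 1) of 31 constitutive subunits, 3 immune subunits, 7 leukocyte markers and 7 hepatocyte markers in each library, minus the chow mean, with the deposited scaling on the left and scaled to total assigned reads on the right. Constitutive subunits in vehicle libraries lie at -0.33 to -0.50 on the left and at -0.02 to -0.05 on the right, while the immune subunits lie above 0 in both (0.23 to 0.36 and 0.48 to 0.78).

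The 19S ATPases, which unfold the substrate, all fell (6 of 6, median -0.45). Psmc1 was at 43.0, 53.0 and 43.1 FPKM in chow, 24.8, 26.8 and 32.7 in vehicle and 38.2, 29.0 and 31.6 in 326E livers. Both CDAA-HFD groups were below chow and overlapped each other, and the diet change was -0.71 ± 0.15, adjusted p = 0.00446. Psmc4 was at 33.5, 37.2 and 34.3 FPKM in chow and 21.7, 22.6 and 27.9 in vehicle, without overlap, with a change of -0.53 ± 0.12 (adjusted p = 0.00682). Psmc5 was nearest to the threshold (-0.35, adjusted p = 0.0403). Its call was lost in 12 of the 21 settings, among them without any one chow library, vehicle replicate 1 or 2 or 326E replicate 1, and its difference was 0.04 under total-read scaling, where none of the 6 ATPases was called.

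Among the 11 other 19S subunits, 7 fell, 3 did not pass the test and Psmd8 rose. Psmd11, a lid subunit, fell most of all members. It was at 14.2, 15.2 and 15.0 FPKM in chow, 7.80, 8.90 and 8.0 in vehicle and 10.2, 10.9 and 10.1 in 326E livers. The 3 ranges were separate and 326E lay between, and the diet change of -0.78 ± 0.08 (adjusted p = 0.000132) was called in all 21 settings, at -0.41 with total reads. Psmd3, another lid subunit, was at 22.3, 23.4 and 20.2 FPKM in chow, 13.6, 13.6 and 16.0 in vehicle and 17.8, 16.4 and 17.7 in 326E livers, also in separate ranges, with a diet change of -0.58 ± 0.10 (adjusted p = 0.00156). Psmd12 (-0.52), Psmd6 (-0.49), the ubiquitin receptor Psmd4 (-0.48), the scaffold Psmd2 (-0.44) and Psmd7 (-0.35), the partner of the deubiquitinase Psmd14, were called too. Psmd14 itself (-0.34, adjusted p = 0.0759), Psmd1 (-0.32, adjusted p = 0.0935) and Psmd13 (-0.14, adjusted p = 0.239) were not, although in each every vehicle library was below every chow library. Of the 7 that fell, Psmd11 alone was still called with total reads.

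Psmd8 went against the rest of the lid to which it belongs (ENSMUSG00000030591, chromosome 7, 29174188 to 29180701 on mm10, minus strand). It was at 34.4, 36.9 and 35.5 FPKM in chow, 51.4, 51.0 and 54.9 in vehicle and 57.1, 55.9 and 49.0 in 326E livers, from 1192 to 3169 reads. Both CDAA-HFD groups were above chow with no overlap, and they overlapped each other. The diet rise of 0.55 ± 0.09 (adjusted p = 0.00159) was called in all 21 settings, at 0.50 to 0.93, and so was the rise of 326E over chow (0.58 ± 0.09, adjusted p = 0.00221). Its exons overlap no other gene of GENCODE vM21 and share no 50-base stretch with one.

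FPKM ratios to other lid subunits are likewise unchanged by a single factor per library. The FPKM ratio of Psmd8 to Psmd7 was 1.44, 1.26 and 1.23 in chow, 2.42, 2.55 and 2.43 in vehicle and 2.20, 2.40 and 2.13 in 326E livers. To Psmd11 it was 2.43, 2.42 and 2.37 in chow, 6.59, 5.73 and 6.86 in vehicle and 5.60, 5.14 and 4.84 in 326E livers. Both ratios were higher in every CDAA-HFD library than in any chow library, and that was also so for Psmd12 (1.13 to 1.21 in chow, 2.04 to 2.77 in the others) and Psmd6 (1.01 to 1.24 in chow, 1.87 to 2.52 in the others).

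**Figure D4:**
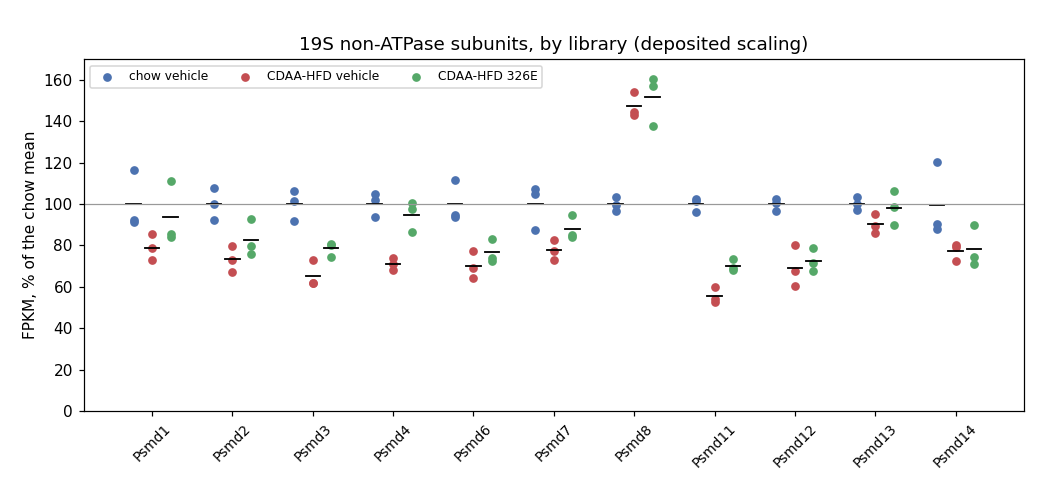
FPKM of the 11 non-ATPase subunits of the 19S cap in each library, as a percentage of the chow mean, with a bar at each group mean, in the deposited scaling. Psmd8 is above 100% in all 6 CDAA-HFD libraries and the other 10 subunits have vehicle means below 100%. Total-read scaling raises all vehicle values and leaves only Psmd11 called lower.

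The assembly chaperones divided. Of the 19S chaperones, Psmd5 fell (7.20, 6.07 and 7.63 FPKM in chow, 5.01, 5.44 and 4.96 in vehicle, 5.86, 6.45 and 6.66 in 326E livers). Its vehicle libraries were below all others, at a diet change of -0.37 ± 0.10 (adjusted p = 0.0147) that was lost without chow replicate 1 or 3 and with total reads. Psmd9 was at 5.53, 5.67 and 5.04 FPKM in chow and 4.56, 4.83 and 3.89 in vehicle and did not pass the test (-0.24, adjusted p = 0.0984), and 25.5% of its exons overlap Gm26745 on the opposite strand. Psmd10, or gankyrin, did not pass either (0.22, adjusted p = 0.177) but was called higher with total reads (0.56, adjusted p = 0.00586).

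Of the 4 chaperones that build the alpha ring, Psmg1 and Psmg2 fell. Psmg1 was at 17.1, 15.3 and 15.2 FPKM in chow, 11.8, 11.0 and 11.0 in vehicle and 11.0, 11.7 and 11.3 in 326E livers. Both CDAA-HFD groups were well below chow and overlapped each other, at a diet change of -0.46 ± 0.08 (adjusted p = 0.00223) and a change of -0.45 ± 0.08 for 326E against chow (adjusted p = 0.0044). Psmg2 was at 16.4, 17.8 and 16.2 FPKM in chow and 12.0, 13.5 and 12.4 in vehicle, without overlap (-0.38 ± 0.10, adjusted p = 0.015). Psmg3, with 45 to 92 reads, and Psmg4 did not pass the test (-0.36, adjusted p = 0.156, and 0.04, adjusted p = 0.842). None of the 4 was called with total reads.

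The interferon-responsive 11S cap genes Psme1 and Psme2 showed no call in any comparison. Psme1 was at 32.5, 37.7 and 26.2 FPKM in chow, 28.5, 29.1 and 32.2 in vehicle and 32.6, 31.0 and 33.3 in 326E livers, and Psme2 at 15.3, 14.7 and 7.28, then 13.9, 12.7 and 11.6, then 17.0, 9.79 and 10.8. All their groups overlapped, with diet changes of -0.09 ± 0.13 and 0.09 ± 0.27. Psme2 shares 28.3% of its 50-base stretches with the near copy Psme2b, so both are uncertain. Psme4, the cap of the nuclear PA200 particle, was at 28.0, 22.7 and 33.9 FPKM in chow, 20.8, 19.4 and 18.1 in vehicle and 17.9, 21.8 and 22.3 in 326E livers. CDAA-HFD values were below chow without overlap, and the diet fall of 0.50 ± 0.15 (adjusted p = 0.0244) was lost without vehicle replicate 2 or 3 or chow replicate 1 or 3, and with total reads.

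With 326E on the diet, 4 members rose and 1 fell, while 4.96% of all genes were called higher and 6.50% lower. The 4 were Psmf1, an inhibitor of the core, and the subunits Psmd4, Psmb3 and Psmd11, and Psmb8 fell. The median change was 0.12, against -0.02 for all genes, and 41 of the 48 members were at or above the median of all genes. Total-read scaling also gave 41, a number nearly fixed in advance because that scaling is a single factor per library. With quantile normalization 10 members lay below the median of all genes, against 7 as deposited, and the median change was 0.11 against 0.01. Among the 31 constitutive subunits 3 rose, none fell and 28 did not pass the test, at a median of 0.16 and a range of -0.04 to 0.40. In 10 members every 326E library was above every vehicle library, where 14.8% of all genes were. In 2 members (Psmb8 and, by a narrow gap, Psmb10) every 326E library was below, where 18.2% were. The count of calls is fragile, with 1 to 4 members called when a library was left out, 2 with total reads (both higher, as 4.25% of all genes were, with 6.79% lower) and 0 with vehicle replicate 2 as the only vehicle library.

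Psmf1 was the most stable of these calls. It was at 5.34, 5.69 and 5.16 FPKM in chow, 4.06, 3.96 and 3.91 in vehicle and 5.81, 5.65 and 6.79 in 326E livers. Vehicle was below both other groups, which overlapped each other. It fell on the diet by 0.36 ± 0.09 (adjusted p = 0.00989), a call lost with total reads (-0.03), and rose with 326E by 0.51 ± 0.09 (adjusted p = 0.00918), a call kept in 20 of 21 settings and lost with vehicle replicate 2 alone.

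The ubiquitin receptor Psmd4 was at 25.8, 28.8 and 28.0 FPKM in chow, 20.3, 18.7 and 19.5 in vehicle and 27.7, 23.8 and 26.8 in 326E livers. Vehicle was below both other groups, and chow and 326E overlapped. The 326E rise of 0.40 ± 0.09 (adjusted p = 0.0258) was lost without 326E replicate 1 or 3 or vehicle replicate 2 or 3. Psmb3 (0.38 ± 0.11, adjusted p = 0.0484) and Psmd11 (0.30 ± 0.08, adjusted p = 0.0467) rose from the values given above, and kept their calls in 7 and 5 of the 21 settings. Both calls were lost without any one 326E library, vehicle replicate 1 or chow replicate 1 or 3, that of Psmb3 also without vehicle replicate 2, and that of Psmd11 also without vehicle replicate 3 or chow replicate 2. The fall of Psmb8 by 0.58 ± 0.16 (adjusted p = 0.0464) was kept in 9 of 21, and it was lost when any vehicle or 326E library or chow replicate 1 was left out and with total reads (adjusted p = 0.0584). Psmb10 and Psmb9 changed by -0.23 and -0.27 without passing the test (adjusted p = 0.254 and 0.31).

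Against chow, the 326E livers had 13 members lower and 1, Psmd8, higher, while 12.5% of all genes were called lower and 14.4% higher. The median was -0.26 against -0.02 for all genes. The largest falls among members called were Psmc1 (-0.48, adjusted p = 0.0379), Psmd11 (-0.47, adjusted p = 0.00356), Psmg1, Psmd12 (-0.44, adjusted p = 0.0195) and Psmc5 (-0.39, adjusted p = 0.0375). Psmd12 was at 29.5, 30.6 and 31.3 FPKM in chow, 20.6, 18.4 and 24.4 in vehicle and 21.8, 20.7 and 24.0 in 326E livers, and Psmc5 at 34.9, 37.9 and 40.8, then 28.9, 27.0 and 33.0, then 30.1, 25.3 and 31.0. In both genes the CDAA-HFD groups overlapped each other and lay below chow. With total reads none of the 13 was called and 3 members were higher (4.32% of all genes were called lower and 28.8% higher), and the median was 0.10 against 0.24 for all genes. With quantile normalization 3 were still called lower, Psmd11 (-0.36, adjusted p = 0.0191), Psmg1 (-0.33, adjusted p = 0.0243) and Psmd12 (-0.30, adjusted p = 0.04). The count of lower members also dropped to 2 without 326E replicate 2, to 4 without 326E replicate 1 and to 5 without any one chow library. The immune subunits lay at -0.05 to -0.04 and none was called.

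**Figure D5:**
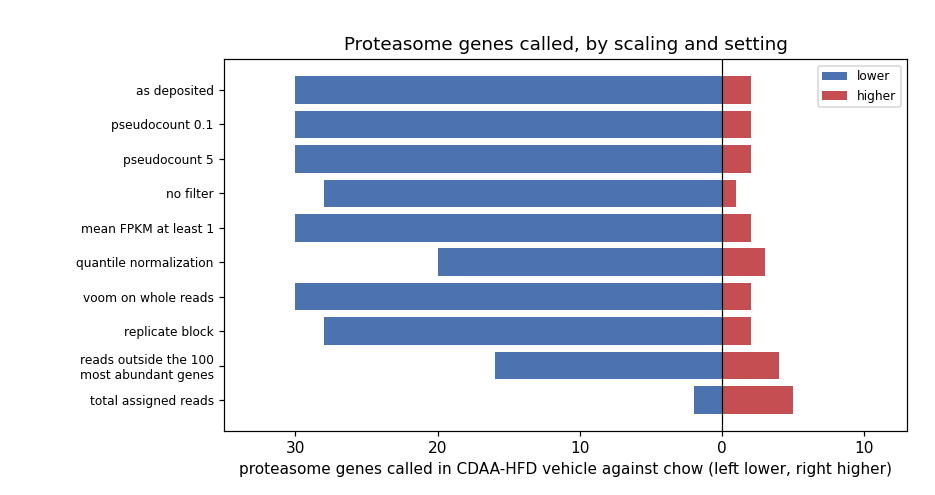
Number of proteasome genes called lower (blue, to the left) and higher (red, to the right) on CDAA-HFD with vehicle against chow, for the reported analysis and 9 alternatives. Calls of lower genes number 30 as deposited, 20 with quantile normalization, 16 with reads outside the 100 most abundant genes and 2 with total assigned reads.

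Other genes around the proteasome were counted by list, beside 20.8% of all genes higher and 20.8% lower on the diet, or 36.9% and 7.00% with total reads. Of 12 partners outside the symbol rule, 6 fell on the diet and 2 rose, at a median of -0.32, but with total reads 1 was lower and 3 were higher, at a median of 0.03. The core chaperone Pomp went from 19 ± 0.950 FPKM (SD) in chow to 14.0 ± 1.14 in vehicle and 15.5 ± 2.13 in 326E livers (diet -0.42, adjusted p = 0.0147), a call lost without vehicle replicate 2 and with total reads. The ubiquitin receptor Adrm1 fell by 0.55 (adjusted p = 0.0211), a call lost without vehicle replicate 1 or 2 or chow replicate 1 or 2 and with total reads. Sem1, a small lid subunit, changed by -0.27 (adjusted p = 0.362). The p97 cofactor Ubxn1 fell by 0.86 (76.5 ± 7.68 FPKM in chow and 41.7 ± 2.01 in vehicle, adjusted p = 0.000817) and the stress-induced partner Zfand2a rose by 1.21 (3.63 ± 0.440 to 9.91 ± 2.45 FPKM, adjusted p = 0.000452), both in all 21 settings.

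Genes that feed the proteasome were measured as well. Of 10 shuttle factors and p97 genes, 6 fell on the diet and none rose, while with total reads none was lower and 1 was higher (median -0.02). Among the 6 was the unfoldase Vcp (71.1 ± 8.54 to 49.9 ± 6.69 FPKM, -0.50, adjusted p = 0.0132), a call lost with total reads. With 326E the shuttle factor Ubqln2 rose by 0.45 (8.73 ± 1.49 to 12.2 ± 0.403 FPKM, adjusted p = 0.0324), a call lost without vehicle replicate 1 or 3, chow replicate 1 or any 326E replicate and with total reads. Of 6 genes of ubiquitin and its activation, Uba1 fell (-0.33, adjusted p = 0.0257) and Uba6 rose (0.60, adjusted p = 0.0449) on the diet, and with total reads 2 were higher and none lower. The call of Uba1 was lost without vehicle replicate 1 or 2 or chow replicate 1 or 3, and its sign turned with total reads (0.06). That of Uba6 was lost without any one vehicle library, chow replicate 1 or 2 or 326E replicate 2 or 3.

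NRF1 itself, Nfe2l1, was at 21.5 ± 1.94 FPKM in chow, 22.7 ± 2.59 in vehicle and 28.1 ± 1.06 in 326E livers, with no call on the diet (0.07, adjusted p = 0.639) or with 326E (0.30, adjusted p = 0.0988). Its rise in 326E over chow livers (0.37, adjusted p = 0.0301) was lost without any one 326E library or chow replicate 1 or 2. Of the 8 genes of its route, 4 rose and 1 fell on the diet (5 and 0 with total reads), and 3 fell with 326E. The gene that fell on the diet, Ddi2, is also counted among the shuttle factors that fell. The small Maf partners Maff and Mafk had the largest diet changes of this list, and Mafg, the other small Maf, changed by 0.40 (adjusted p = 0.0447). Maff rose from 2.48 ± 0.782 to 34.6 ± 21.0 FPKM (3.16, adjusted p = 0.00053) and was at 7.26 ± 1.26 with 326E (-1.90, adjusted p = 0.026), and Mafk rose from 5.10 ± 0.723 to 15.1 ± 6.61 and was at 6.02 ± 0.450 with 326E (1.32, adjusted p = 0.00412, and -1.11, adjusted p = 0.0307). The diet rises were called in all 21 settings, while both 326E falls were lost without vehicle replicate 1 or 3 and without any 326E library.

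Class I presentation did not move one way with the deposited scaling. Of 10 genes, 3 rose and 2 fell on the diet (5 and 1 with total reads), and none was called with 326E. With quantile normalization 5 rose and 0 fell on the diet, at a median of 0.33 against -0.09 for all genes. The fall of Calr given below was then not called (adjusted p = 0.0596). The peptide transporter Tap2 rose from 3.60 ± 0.285 to 5.29 ± 0.671 FPKM (0.45, adjusted p = 0.0073), Tap1 changed by 0.29 (adjusted p = 0.143), the heavy chain H2-D1 rose by 0.81 (adjusted p = 0.00352) and the chaperone Calr fell from 268 ± 43.4 to 134 ± 22.2 FPKM (adjusted p = 0.00172). Of 10 tested genes of interferon control, 5 rose and 1 fell on the diet, against 8 and 1 with total reads. Interferon gamma itself, Ifng, had 0 reads in all 3 vehicle libraries and was not tested. Its receptor chain Ifngr1 rose from 8.20 ± 0.547 to 24.4 ± 1.19 FPKM (1.47, adjusted p = 7.32e-06) and was at 16.5 ± 0.604 with 326E (-0.54, adjusted p = 0.00639). The guanylate-binding protein Gbp2 rose by 1.56 (adjusted p = 0.00247), while the class I regulators Irf1 (0.32, adjusted p = 0.268) and Nlrc5 (0.25, adjusted p = 0.236) did not pass the test.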

How the data were processed

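The libraries were made from poly(A) RNA. The submitters' processing notes name HISAT2, featureCounts and mm10, and give no version. Annotation release and strand setting of the counting are not given in the sources used here. The deposited values are FPKM. The product of FPKM and gene length was whole in 100% of values (within 0.01), so reads per library could be read back. For a gene 2 kb long, a single read is 0.0246 to 0.0455 FPKM, which limits the precision of low values.

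The filter kept 13737 genes that reached 0.5 FPKM in 3 or more libraries. Tests were run with limma 3.58.1 (R 4.3.3). The response was log2(FPKM + 1), the variance trend was modelled, and a single fit over the 9 libraries left 6 residual degrees of freedom. Benjamini-Hochberg adjustment ran over all genes tested, with calls at an adjusted p under 0.05. Fold changes on this scale understate the change of low genes. Ratios of subunits were compared with an exact two-sided permutation test (scipy 1.17.1). The method was tested on simulated data.

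The members, gene lists and marker lists were chosen with earlier results of these data known. Values by library were given for Psmb5 to Psmb10, Psme1 and Psme2, for the 2 members of each role with the largest diet change and for the 5 largest called rises and falls. Of these, Psma8 was given as ranges, and Psmb2, Psmc4, Psmd9 and Psmg2 in chow and vehicle only. Of the other lists, the 2 called genes with the largest change were named, and Pomp, Adrm1, Sem1, Nfe2l1, Tap1, Tap2, Irf1, Nlrc5 and Ifng. Other members were named after their values were seen. Overlap and shared stretches of 50 bases were taken from GENCODE vM21, where 48 of the 50 members have the deposited coordinates. Exonic length there differs from the deposited gene length for Psmb8 (3381 against 2736 bases), Psmg2 (1738 against 1059) and Psma8 (2494 against 1693). It also differs slightly for Psmb9 (3660 against 3659). The overlap given for Psmb8 is thus that of the vM21 exons, which may not be those counted. Alternatives changed the pseudocount (0.1 or 5), the filter (none, or a mean of 1 FPKM or more), the variance trend, the normalization (quantile, or total reads), the model (voom on whole reads, a replicate block) and the libraries (each comparison alone, or 1 library removed). Scaling to reads outside the 100 most abundant genes and keeping vehicle replicate 2 alone were added after the data were seen.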

Additional observations from a re-analysis of the deposited data

How the results depend on the processing

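The direction of proteasome genes on the diet rests on the scaling between libraries more than on any other choice. Scaled to total assigned reads, 7 members were called on the diet (5 higher and 2 lower, in place of 2 and 30), 2 with 326E and 3 for 326E against chow. Scaled to reads outside the 100 most abundant genes, the counts were 20, 3 and 2. Quantile normalization left 4 members called for 326E against chow. Among called members, total-read scaling turned the sign of Psma6 (0.02), Psmc3 (0.07), Psmc5 (0.04) and Psmd7 (0.04) on the diet and of Psma1 (0.05), Psmb1 (0.02), Psmd3 (0.02) and Psmg2 (0.03) for 326E against chow. It also turned that of Uba1 on the diet (0.06), and the share of higher genes among diet calls went from 50% to 84.1%.

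Calls for 326E were few and sensitive. The 5 members became 2 with no filter, 3 with no variance trend, 2 with only the libraries of the comparison, 2 with a pseudocount of 0.1 and 1 to 4 with a library left out. All genes called for 326E numbered 1574, 1030 with no filter and 659 to 1623 with a library left out. Against chow, leaving out a library gave 2401 to 3717 genes and 3 to 13 members. Where a library is left out, the group is left with 2 and the spread is shared by the fit.

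With vehicle replicate 2 as the only vehicle library, 3596 genes and 20 members were called on the diet and 322 genes and 0 members for 326E. In that fit the lone library is assumed to vary like the other groups. The log2 ratio of Psmb9 over Psmb6 then rose by 0.95 on the diet and that of Psmb10 over Psmb7 changed by -0.68 with 326E.

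Deviations from the group mean correlated at -0.24 to 0.02 between same-numbered libraries and at -0.18 to 0.19 between different-numbered ones. With means of only 3 libraries, these values cannot decide whether the replicate numbers pair the samples. A replicate block gave 1037 genes and 2 members for 326E, 8 members for 326E against chow, and 30 members on the diet. The low reads of Psmb8, Psmb9 and Psmg3 limit their precision. Of the values of single genes chosen by the rule for named genes under alternatives, 2549 kept direction and side of the threshold. Of the rest, 277 lost a call, 31 gained one and 96 changed sign without a call. The other 5 were called in the reported analysis and changed sign. All 5 did so under total-read scaling, where none of them was called.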
